A study of Dunaliella tertiolecta with 6 samples.

Results

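The plastid genome of the green alga Dunaliella tertiolecta was followed here gene by gene in poly(A)-selected RNA. Its members are the 76 genes that the deposited annotation places on the sequence named plastome, of 14354 genes in the expression table, and each of the 76 was matched to the table by its identifier. RNA came from wild-type vegetative cells of UTEX LB 999, a strain of this unicellular alga without a cell wall, kept in liquid medium of 2 M NaCl on shakers (140 rpm, 24 °C, light always on at 100 µE). The medium held either 0 µM or 1.5 µM added iron, and each level has 3 libraries from separate flasks. Growth lasted 2 d by the time label, while the growth protocol says 3 days. Each gene has 1 value per library in FPKM, fragments per kilobase, scaled to the mapped reads.

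Plastids keep a small genome of bacterial type, which codes for core subunits of both photosystems, the cytochrome b6f complex, ATP synthase and Rubisco, and for parts of the plastid's own ribosome and RNA polymerase. The other subunits of these complexes are encoded in the nucleus, so each complex is assembled from 2 genomes. Plastid mRNAs carry no stable poly(A) tail, and tails that are added to them mark RNA for decay, so a poly(A)-selected library is not a sample of all plastid RNA and the levels below are levels in that fraction. In these bulk samples, a change in the amount of plastid per cell and a change in RNA per plastid cannot be told apart.

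The plastome of 242636 bp carried 37 of the genes on the plus strand and 39 on the minus strand. By symbol they comprised 5 psa genes of photosystem I, 16 psb genes of photosystem II, 5 pet genes of the cytochrome b6f complex, 6 atp genes of ATP synthase, 7 rpl and 11 rps genes of the ribosome, 5 rpo genes of the RNA polymerase and 21 others. The gene psaA was annotated in 2 pieces, exon 1 and exons 2-5. The open reading frames orf140a and orf140b, and orf234a and orf234b, are copies that had nearly the same values in every library, so they are counted as 4 genes but hold only 2 independent measurements.

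The libraries carried the marks of their iron labels in nuclear genes. FLD1, for flavodoxin, lay between 8692 and 10306 FPKM without added iron and between 10.54 and 15.3 FPKM with it. The FPKM of a library summed to 808590 to 898150 without added iron and to 982300 to 1021500 with it. Low FPKM values came in even steps; taking each step as 1 read gives depths of 16170297, 16707802 and 20254540 reads in replicates 1, 2 and 3 without added iron and 16345915, 15256051 and 10256133 reads with it. Plastome genes took 82459, 21066 and 31154 of those reads without added iron and 22041, 19582 and 13829 with it.

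The 0 µM replicate 1 library stood apart from the other 5 in the plastome genes. Plastome genes made up 2.23%, 0.440% and 0.536% of the summed FPKM in replicates 1, 2 and 3 without added iron, against 0.385%, 0.406% and 0.385% with 1.5 µM added iron. Replicate 1 was therefore far above the other 5 libraries. The size of these shares depended on the short gene petG. With petG left out they were 1.32%, 0.358% and 0.477% without added iron, against 0.3075%, 0.296% and 0.320% with it. The order of the other 0 µM libraries and the 1.5 µM libraries depended on the measure. Summed plastome FPKM was 19143, 3953 and 4336 in replicates 1, 2 and 3 without added iron, against 3846, 4150 and 3783 with it. As a share of the implied depth, plastome reads were 0.510%, 0.126% and 0.154% without added iron, against 0.135%, 0.128% and 0.135% with it. By this share 0 µM replicate 2 was narrowly the lowest of the 6. The group means of the share of summed FPKM, petG included, were 1.07% ± 1.01 without added iron and 0.392% ± 0.0123 with it (SD, n = 3 each). The mean without added iron was 0.488% when replicate 1 was left out. Of the 75 plastome genes with any value above 0, 60 had their highest value of the 6 libraries in that one.

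The excess of 0 µM replicate 1 was uneven between functions. Over the 50 plastome genes with at least 60 reads in all, its FPKM was a median 2.32 times the mean of replicates 2 and 3. The median ratio was 3.48 over 10 rps genes, 2.73 over 14 other genes, 2.34 over 5 rpo genes, 2.27 over 5 atp genes, 1.86 over 5 rpl genes and 1.70 over 7 psb genes. The largest ratio was 12.9, for petG, and the smallest 0.796, for rpl23. Over 11203 nuclear genes with a mean of at least 1 FPKM the median ratio was 0.949, and 1.24% of these exceeded 1.5, against 81.6% of 49 plastome genes. The 7 mitogenome genes had a median ratio of 2.17, and there 0 µM replicate 2 was the lowest of the 6 libraries in 6 of the 7. The mitogenome gene cox1, for example, had 119, 25.4 and 78.1 FPKM in replicates 1, 2 and 3 without added iron, against 65.6, 63.3 and 92.01 FPKM with it. What set replicate 1 apart was not tested, and changes without it are given below for most of the genes described. Of the 48 genes tested both ways, 9 turned direction without it.

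**Figure D1:**
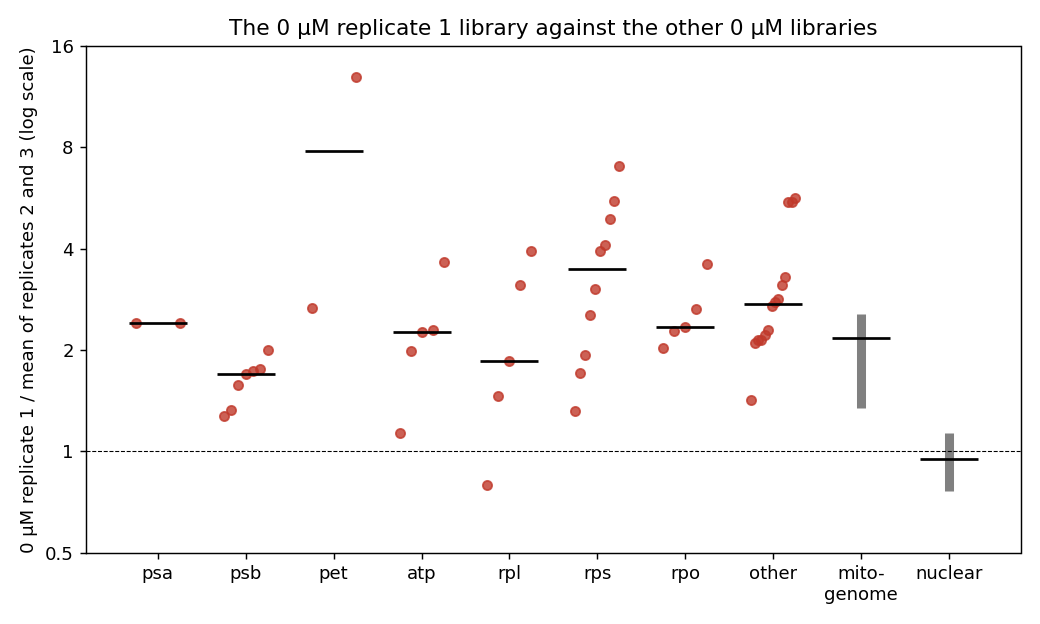
Ratio of the 0 µM replicate 1 library to the mean of 0 µM replicates 2 and 3 (log scale) for the 50 plastome genes with at least 60 reads, by functional group, with a black line at each median; grey bars span the 10th to 90th percentile of 7 mitogenome and 11203 nuclear genes. Nearly all plastome points lie above 1, up to 12.9 for petG, while the nuclear median is 0.949.

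The low values also showed how many reads stood behind each gene. An effective-length curve calibrated on nuclear genes alone turned 145 of 167 plastome values of 1 to 25 reads into whole numbers within about 0.05 of a read. In these values a gene's length entered shortened for fragment size, which gives very short genes a higher FPKM. Another 20 values, all in replicates 1 and 2 of both iron levels, came out whole only with the full coding length. For a gene of 102 nt, such as psb30, 1 read is worth 49.1 times more FPKM with the shortened length than with the full one. The plastome holds 15 genes under 200 nt, so levels and changes are given below also with every value put on the full coding length, a setting chosen after seeing the data.

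The levels of plastome genes spanned a wide range. The mean FPKM over the 6 libraries was at most 1931, for petG, its median over the 76 genes was 7.25, and 27 genes had a mean under 1 FPKM. The gene psbK was at 0 in every library and 16 genes were at 0 in some or all libraries. With all values on one length, ribosomal protein genes were among the most abundant. They included rps18 (857 FPKM on one length, mean of 6 libraries), rps2 (212 FPKM) and rps3 (117 FPKM), and psbA stood at 106 FPKM. These means lean on 0 µM replicate 1. On one length rps18 had 2849 FPKM there and 351 to 708 FPKM in the other libraries. For rps2 the values were 688 against 101 to 147 FPKM, and for rps3 320 against 65.9 to 88.7 FPKM. With added iron psbA, at 107 to 120 FPKM, was above rps3, at 65.9 to 84.4 FPKM. As background, psbA, for the D1 protein, and rbcL, for the large subunit of Rubisco, are among the most abundant plastid mRNAs in total RNA of green algae and plants. Here rbcL stood in place 25 of 76, at 10.2 FPKM on one length.

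The 3 genes rps2, rps18 and rps3 together took 72.1%, 48.5% and 56.6% of plastome reads in replicates 1, 2 and 3 without added iron, and 44.4%, 44.3% and 48.8% with it. The gene petG, first by deposited FPKM, had 421, 41 and 32 reads in replicates 1, 2 and 3 without added iron and 42, 57 and 22 with it. On one length it fell to place 12. At the other end, 26 of 76 genes had under 60 reads in the 6 libraries together, among them petB, petD, chlN, ccsA and clpP. The gene chlB, for a subunit of the light-independent protochlorophyllide reductase, had 4 reads in all.

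**Figure D2:**
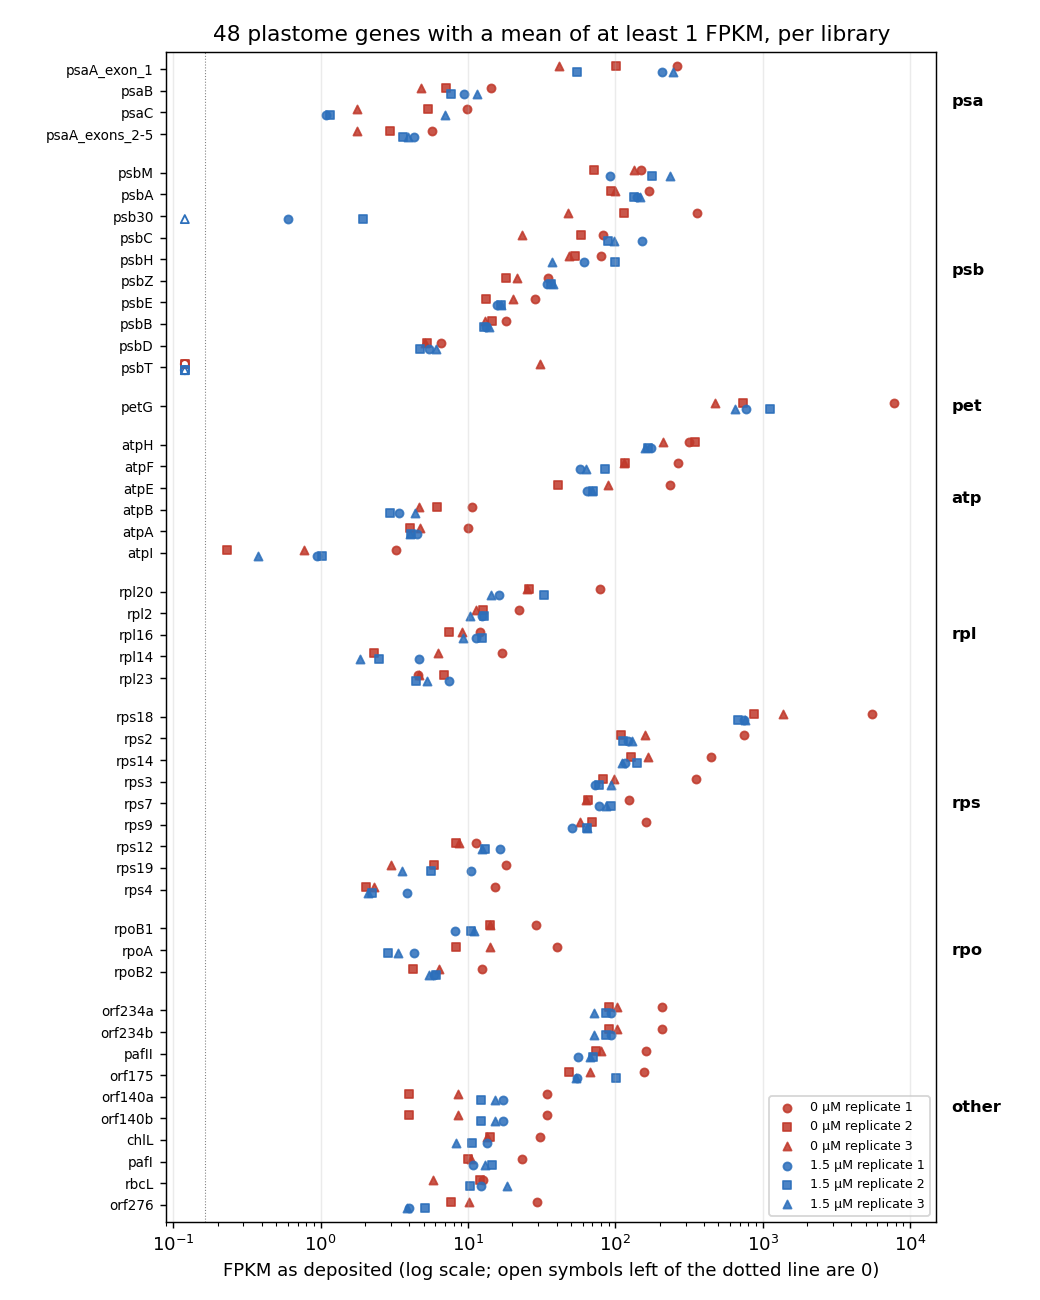
Deposited FPKM (log scale) in each of the 6 libraries of 48 of the plastome genes with a mean of at least 1 FPKM, grouped by function; red symbols are 0 µM and blue symbols 1.5 µM added iron, and open symbols left of the dotted line are 0. The 0 µM replicate 1 library (red circles) is the highest of the 6 in 38 of these 48 genes, and petG reaches 7836 FPKM there.

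Cells without and with added iron were then compared gene by gene. Of the 76 plastome genes, 49 had a mean of at least 1 FPKM and were tested, with p-values adjusted over all 11273 genes tested in limma. Of these 49, 5 rose without added iron (psb30, rpoA, orf276, atpF and atpH), where 11.6% of all tested genes rose. Only rps12 fell, where 18.7% of all tested genes fell; 30.2% of all tested genes passed in either direction. The shares of 10.2% of members rising and 2.04% falling were thus close to and below those of all genes. The libraries of the 2 iron levels did not overlap for 10 members that were higher and 2 that were lower without added iron, which is 20.4% and 4.08% of the members tested, against 19.6% and 28% of all genes tested. The median log2 fold change over the members was 0.40, and -0.03 over all genes. Without 0 µM replicate 1 the members' median was 0.02, with 5 rising and 7 falling (background 8.81% and 14.5%). On one length, 6 rose and 1 fell of 46 tested (background 12.6% and 19.9%). With the FPKM sums of the libraries set equal, 11 members rose and 0 fell, the median of all genes moved to 0.17 and that of the members to 0.59, and 3189 of all genes rose and 1086 fell, against 1303 and 2105 as deposited. The 7 that fell without 0 µM replicate 1 were rps12, psbA, psbC, psbZ, rps7 and both orf140 copies, and rpoB1, rpoA, psb30, atpF and orf276 rose.

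**Figure D3:**
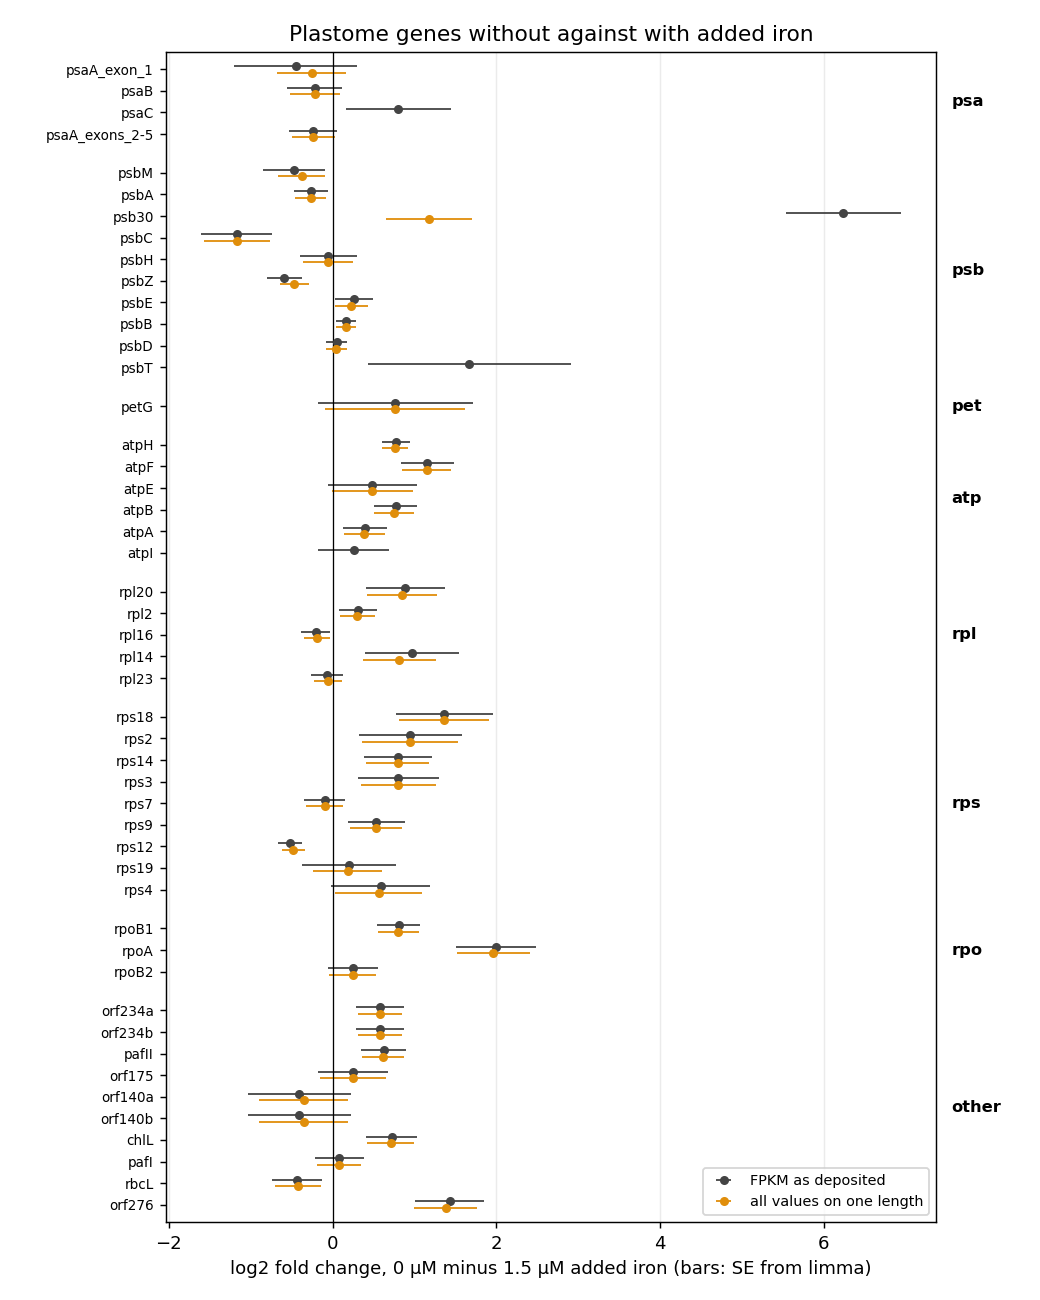
Log2 fold change of 0 µM minus 1.5 µM added iron (points) with its SE from limma (bars) for 48 of the tested plastome genes, grouped by function, from deposited FPKM (dark) and with all values on one length (orange, 45 genes). The 2 estimates nearly coincide for most genes, but psb30 stands at 6.24 by deposited FPKM and at 1.18 on one length.

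In photosystem II, the light-driven enzyme that splits water, 1 of 10 tested psb genes rose and none fell at the threshold. The gene that rose, psb30, codes for a small core subunit of the complex and lies at plastome:111974-112075 on the plus strand. It had 357, 115 and 47.6 FPKM in replicates 1, 2 and 3 without added iron, against 0.601, 1.93 and 0 FPKM with it (log2 fold change 6.24, SE 0.70, limma adjusted p = 0.0005992). By FPKM the 2 groups stood far apart, but both rested on few reads. Those values stand for 12, 4 and 2 reads without added iron and 1, 3 and 0 reads with it. The 3 values without added iron were whole reads with the shortened length, and both values above 0 with added iron only with the full length. On one length the groups overlapped, and psb30 did not pass (log2 fold change 1.18, SE 0.53, limma adjusted p = 0.1201). With the replicate number as a block as well it did (limma adjusted p = 0.02323), though the plastome genes as a set showed no pairing by that number. Without 0 µM replicate 1 the change of psb30 was 0.62 on one length (limma adjusted p = 0.3382).

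**Figure D4:**
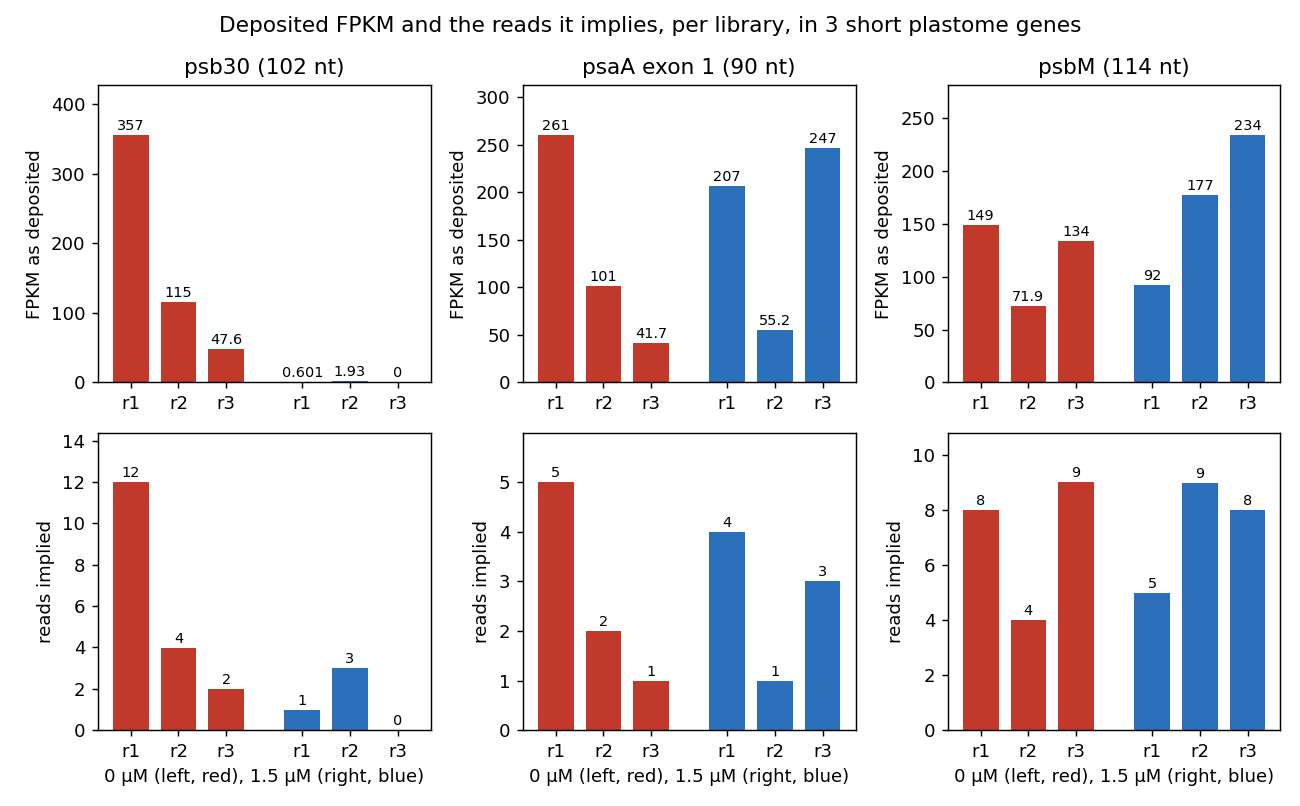
Deposited FPKM (top) and the reads it implies (bottom) in each library for psb30 (102 nt), psaA exon 1 (90 nt) and psbM (114 nt), with 0 µM libraries on the left in red and 1.5 µM libraries on the right in blue. For psb30 the top panel runs from 0 to 357 FPKM, while the bottom panel shows 12, 4 and 2 reads without and 1, 3 and 0 reads with added iron.

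Other short photosystem II genes had as few reads. The gene psbM had 8, 4 and 9 reads in replicates 1, 2 and 3 without added iron and 5, 9 and 8 with it, and did not pass (log2 fold change -0.47, and -0.67 without 0 µM replicate 1; limma adjusted p = 0.3892 and 0.3081). Its deposited values of 71.9 to 149 FPKM without and 92.03 to 234 FPKM with added iron all carried the shortened length. For psbT, 1 read gave 31.1 FPKM in 0 µM replicate 3 and the other 5 libraries were at 0. The 6 psb genes that were not tested, psbF, psbI, psbJ, psbK, psbL and psbN, had between 0 and 3 reads over all libraries.

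Among the larger photosystem II genes, those for the reaction centre and inner antenna did not all follow one direction. The gene psbC, for the inner antenna protein CP43, had 82.1, 58.9 and 23.3 FPKM in replicates 1, 2 and 3 without added iron, against 152, 89.7 and 98.3 FPKM with it. All 0 µM libraries lay below all 1.5 µM libraries, but it did not pass (log2 fold change -1.17, SE 0.43, limma adjusted p = 0.08013). It passed with the replicate number as a block (limma adjusted p = 0.02005) and without 0 µM replicate 1 (-1.54, limma adjusted p = 0.04082). The plastome genes as a set showed no pairing by replicate number. The gene psbA had 169, 94.1 and 100.1 FPKM without added iron, against 141, 133 and 148 FPKM with it. Replicate 1 was above and the other 2 below the 1.5 µM libraries, so the change of -0.27 did not pass (limma adjusted p = 0.3653) and became -0.53 without 0 µM replicate 1 (limma adjusted p = 0.006892).

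The genes for the partner proteins of CP43 and D1 moved little. The gene psbB, for the antenna protein CP47, had 18.2, 14.5 and 13.0 FPKM without added iron and 13.2, 12.8 and 13.9 FPKM with it (log2 fold change 0.17, limma adjusted p = 0.3412; 0.04 without 0 µM replicate 1). The gene psbD, for the D2 protein, had 6.58, 5.25 and 5.09 FPKM without added iron and 5.45, 4.75 and 6.04 FPKM with it (0.05, SE 0.13, limma adjusted p = 0.8012; -0.05 without 0 µM replicate 1). The groups overlapped for both. The gene psbZ, for a small subunit, had 34.7, 18.1 and 21.4 FPKM without added iron and 34.4, 36.8 and 37.9 FPKM with it. Its log2 fold change of -0.59 did not pass (limma adjusted p = 0.07412), and was -0.85 without 0 µM replicate 1 (limma adjusted p = 0.002432). These values rest on 13, 7 and 10 reads without added iron and 13, 13 and 9 with it.

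In photosystem I, which holds iron-sulfur clusters and passes electrons to ferredoxin, none of 4 tested psa genes passed. The gene psaB, for one of the 2 large core proteins, had 14.3, 7.08 and 4.84 FPKM in replicates 1, 2 and 3 without added iron, against 9.45, 7.72 and 11.6 FPKM with it (log2 fold change -0.22, SE 0.33, limma adjusted p = 0.6489). Without 0 µM replicate 1 the groups did not overlap, and the change was -0.61 (limma adjusted p = 0.07933). For the other core protein, psaA exons 2-5 had 5.67, 2.96 and 1.76 FPKM without added iron and 4.31, 3.61 and 3.93 FPKM with it (-0.24, limma adjusted p = 0.5667; -0.58 without 0 µM replicate 1). Both large core genes thus had the same order of libraries at 0 µM. The first exon of psaA rested on 5, 2 and 1 reads without added iron and 4, 1 and 3 with it. The gene psaC, for the subunit that carries the terminal iron-sulfur clusters, rested on 9, 5 and 2 reads without added iron and 1, 1 and 4 with it (0.80, limma adjusted p = 0.3801; 0.34 without 0 µM replicate 1).

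Of the 5 pet genes of the cytochrome b6f complex, which links the photosystems, only petG reached a mean of 1 FPKM. It had 7836, 737 and 475 FPKM in replicates 1, 2 and 3 without added iron, against 773, 1122 and 644 FPKM with it. Replicate 1 stood far above the other 5 libraries, and the change of 0.77 (SE 0.95, limma adjusted p = 0.5761) turned to -0.48 without it. The genes for the large subunits were low. The gene petA, for cytochrome f, had 22, 8 and 11 reads without added iron and 10, 8 and 5 with it. The gene petB, for cytochrome b6, had 5, 4 and 4 reads without added iron and 5, 4 and 1 with it. The gene petD, for subunit IV, had 5, 5 and 7 reads without added iron and 1, 1 and 0 with it, so its groups did not overlap, though it lay under the limit for testing.

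Of the 6 ATP synthase genes, 2 rose without added iron and none fell. The gene atpH, for the membrane ring subunit, had 317, 347 and 211 FPKM in replicates 1, 2 and 3 without added iron, against 176, 166 and 160 FPKM with it (log2 fold change 0.77, SE 0.17, limma adjusted p = 0.01444). All 0 µM libraries lay above all 1.5 µM libraries, and replicate 1 did not stand apart. Without that library the change was 0.70 and the adjusted p 0.05386. Its neighbour atpF, for a subunit of the stator stalk, had 264, 116 and 115 FPKM without added iron, against 57.6, 84.8 and 63.1 FPKM with it (1.16, SE 0.32, limma adjusted p = 0.03247). It passed without 0 µM replicate 1 as well (0.76, limma adjusted p = 0.02257), but not without 1.5 µM replicate 1 (0.082107) or 3 (0.087272), with no filter (0.065356) or with robust eBayes (0.053458). Both lie on the minus strand, atpF at plastome:169941-170465 and atpH at plastome:171538-176294, with 1072 bp between them.

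The other atp genes did not pass. The gene atpB, for the catalytic beta subunit, had 10.7, 6.13 and 4.63 FPKM without added iron, against 3.41, 2.96 and 4.41 FPKM with it. Its groups did not overlap, and it came close (log2 fold change 0.77, limma adjusted p = 0.06266), passing on one length (adjusted p = 0.04398) and without 0 µM replicate 3 (limma adjusted p = 0.031851). Without 0 µM replicate 1 it was 0.48 and did not pass (limma adjusted p = 0.10556), nor on one length without that library (0.46, 0.086072). The gene atpA, for the alpha subunit, had 9.996, 4.06 and 4.75 FPKM without added iron and 4.49, 4.10 and 4.02 FPKM with it (0.40, limma adjusted p = 0.3063; 0.05 without 0 µM replicate 1). The gene atpE, for the epsilon subunit, had 236, 40.7 and 88.9 FPKM without added iron and 63.9, 70.2 and 69.2 FPKM with it (0.48, limma adjusted p = 0.5343), and turned to -0.17 without 0 µM replicate 1. In both, replicate 1 was the highest and the groups overlapped.

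Of the 3 tested genes for the plastid RNA polymerase, 1 rose without added iron and none fell. The gene rpoA, for the alpha subunit that holds the enzyme together, had 40.1, 8.27 and 14.0 FPKM in replicates 1, 2 and 3 without added iron, against 4.32, 2.88 and 3.37 FPKM with it (log2 fold change 2.00, SE 0.48, limma adjusted p = 0.01935). Every 0 µM library was above every 1.5 µM library. These values rest on 901, 192 and 395 reads without added iron and 98, 61 and 48 with it, and the change was 1.40 without 0 µM replicate 1 (limma adjusted p = 0.009342). Leaving out 1.5 µM replicate 3 ended the call (limma adjusted p = 0.054243). It is the largest change among the called plastome genes that keep their call on one length. The gene lies at plastome:108702-110294 on the minus strand, next to psb30, which is on the other strand 1679 bp away.

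The beta subunit of the polymerase is annotated as 2 genes. The gene rpoB1 had 28.8, 14.2 and 14.2 FPKM without added iron, against 8.22, 10.52 and 11.1 FPKM with it. The groups did not overlap and the change of 0.81 fell just short (limma adjusted p = 0.05501), passing on one length (adjusted p = 0.03588) and without 0 µM replicate 1 (0.49, limma adjusted p = 0.04645). The gene rpoB2 had 12.4, 4.27 and 6.34 FPKM without added iron and 5.85, 6.10 and 5.41 FPKM with it (0.25, limma adjusted p = 0.5776; -0.13 without 0 µM replicate 1), and its groups overlapped. The genes rpoC1 and rpoC2, for the beta' subunit, were under the limit for testing. The gene rpoC2 had 53, 19 and 27 reads without added iron and 15, 13 and 4 with it, and rpoC1 had 30, 14 and 16 reads without added iron and 7, 10 and 3 with it.

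Of the 15 ribosomal protein genes tested, 1 passed. The gene rps12, for a protein of the decoding site of the small subunit, fell. It had 11.3, 8.35 and 8.76 FPKM in replicates 1, 2 and 3 without added iron, against 16.4, 13.0 and 12.6 FPKM with it (log2 fold change -0.52, SE 0.14, limma adjusted p = 0.02961). The groups did not overlap, and the values rest on 34, 26 and 33 reads without added iron and 50, 37 and 24 with it. The change was -0.31 with the FPKM sums set equal and did not pass (limma adjusted p = 0.13407), nor did it without 0 µM replicate 2 (0.097941) or 3 (0.089512) or 1.5 µM replicate 1 (0.075043), with no filter (0.052692) or with median ratio scaling (0.052877).

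In the abundant rps genes replicate 1 stood out. The gene rps18 had 5504, 873 and 1368 FPKM without added iron, against 753, 678 and 753 FPKM with it. All 0 µM libraries were above all 1.5 µM libraries, but the spread at 0 µM was wide (log2 fold change 1.36, SE 0.59, limma adjusted p = 0.1243). It was 0.59 without replicate 1 (limma adjusted p = 0.06871). Its neighbour rps2, 885 bp downstream on the same strand, had 747, 109 and 159 FPKM without added iron and 123, 113 and 131 FPKM with it (0.95, limma adjusted p = 0.2943; 0.12 without replicate 1). The gene rps3 had 354, 82.2 and 98.2 FPKM without added iron and 72.9, 78.1 and 93.4 FPKM with it (0.80, limma adjusted p = 0.2619; 0.15 without replicate 1). In both, replicate 1 was far above the rest, and replicate 3 was above all 1.5 µM libraries by less. Replicate 2 was below all 1.5 µM libraries for rps2 and within their range for rps3. Without 0 µM replicate 2, rps18 passed (limma adjusted p = 0.045724).

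Of the large-subunit genes, 5 of 7 were tested and none passed. The most abundant by deposited FPKM, rpl20, had 79.3, 25.9 and 25.02 FPKM without added iron and 16.2, 32.7 and 14.3 FPKM with it (log2 fold change 0.89, limma adjusted p = 0.200; 0.35 without 0 µM replicate 1). The gene rpl2 had 22.4, 12.7 and 11.3 FPKM without added iron and 12.4, 12.8 and 10.3 FPKM with it (0.31, limma adjusted p = 0.351; 0.03 without 0 µM replicate 1). The groups overlapped in both. The gene rpl23 was lower in 0 µM replicate 1 than in the mean of replicates 2 and 3, which no other plastome gene with at least 60 reads was.

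Among the other genes, orf276 rose. This open reading frame, at plastome:228130-228960, lies inside atpA (plastome:227054-230566) on the same strand, in the stretch between the 2 coding segments of atpA. It had 29.4, 7.63 and 10.2 FPKM in replicates 1, 2 and 3 without added iron, against 4.01, 5.12 and 3.89 FPKM with it (log2 fold change 1.43, SE 0.42, limma adjusted p = 0.0395). All 0 µM libraries were above all 1.5 µM libraries, also without replicate 1 (0.89, limma adjusted p = 0.012), while the groups of its host atpA overlapped. The difference between orf276 and atpA was not tested. Leaving out 0 µM replicate 3 or any 1.5 µM library ended the call (limma adjusted p = 0.058026 to 0.10167), as did dropping the filter (0.077218) or robust eBayes (0.061776). The open reading frame orf175 lies inside psbA in the same way and did not pass (0.25, limma adjusted p = 0.6947), and turned to -0.23 without 0 µM replicate 1.

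Genes of carbon fixation, chlorophyll synthesis and photosystem assembly did not pass. The gene rbcL had 12.6, 12.0 and 5.78 FPKM in replicates 1, 2 and 3 without added iron, against 12.4, 10.3 and 18.6 FPKM with it (log2 fold change -0.43, SE 0.30, limma adjusted p = 0.323; -0.61 without 0 µM replicate 1). Both groups held a library far from the other 2. The gene chlL, for an iron-sulfur subunit of the light-independent protochlorophyllide reductase, had 30.7, 14.2 and 13.51 FPKM without added iron, against 13.49, 10.6 and 8.30 FPKM with it. The groups were barely apart (0.72, limma adjusted p = 0.12). It passed with the replicate number as a block (limma adjusted p = 0.01425), though the plastome genes as a set showed no pairing by that number. Without 0 µM replicate 1 the change of chlL was 0.36 (limma adjusted p = 0.21489). The photosystem I assembly gene pafII, also called ycf4, had 162, 74.4 and 80.04 FPKM without added iron and 55.8, 70.1 and 66.9 FPKM with it (0.62, limma adjusted p = 0.1332; 0.27 without 0 µM replicate 1). The other assembly gene, pafI or ycf3, had 23.4, 9.96 and 10.46 FPKM without added iron and 10.8, 14.5 and 13.1 FPKM with it (0.08, limma adjusted p = 0.8593; -0.29 without 0 µM replicate 1).

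The remaining named genes had a mean under 1 FPKM and were not tested. That limit is one of FPKM and not of reads: cemA had 135 reads in all, while psbT, with 1 read, was tested. The gene tufA, for the plastid elongation factor Tu, had 26, 9 and 12 reads in replicates 1, 2 and 3 without added iron and 3, 5 and 5 with it. The gene clpP, for a protease subunit, had 19, 4 and 2 reads without added iron and 2, 1 and 1 with it. The gene cemA, for an envelope membrane protein, had 38, 12 and 16 reads without added iron and 19, 32 and 18 with it, and ccsA, for a factor of cytochrome c assembly, had 11, 6 and 6 without added iron and 8, 9 and 2 with it. The gene chlN had 19, 4 and 10 reads without added iron and 7, 6 and 2 with it, and ycf1 had 18, 1 and 6 reads without added iron and 2, 3 and 3 with it. Replicate 1 was the highest of the 6 libraries in each of these untested genes.

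By deposited FPKM, in which psb30 mixes both lengths, the plastome genes whose levels followed psb30 most closely over the 6 libraries were atpH (Pearson's r = 0.92 on the log2 scale), atpF (0.92), rpoA (0.89), orf276 (0.89) and rpoB1 (0.87). These are a description over 6 libraries that share the same groups. On one length the values for these 5 genes were 0.75, 0.90, 0.75, 0.86 and 0.82, and the order changed: rpl20 (0.96) and rpl2 (0.92) came first, and chlL (0.88) was also above atpH and rpoA.

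Nuclear genes for subunits of the same complexes are given beside the plastome genes. All 9 PSA genes, all 4 tested PET genes, all 3 genes for nuclear ATP synthase subunits of the plastid, both RBCS genes, 12 of 17 PSB genes and all 35 plastid ribosomal protein genes fell, and none of these lists had a gene that rose, where 18.7% of all tested genes fell and 11.6% rose. Their median log2 fold changes were -2.50 (PSA), -1.91 (PET), -0.40 (ATP synthase), -0.71 (RBCS), -0.58 (PSB) and -0.57 (plastid ribosome). For example, PSAF1, for the plastocyanin docking subunit of photosystem I, averaged 703 ± 30.4 FPKM without added iron and 4085 ± 112 FPKM with it (SD, n = 3 each). ATPC1, for the gamma subunit of ATP synthase, averaged 1432 ± 32.0 FPKM without added iron and 1887 ± 73.2 FPKM with it (SD, n = 3 each; log2 fold change -0.40, limma adjusted p = 0.0017016). Of its plastome partners, atpF and atpH rose, in calls that depended on the setting as given above, and the others did not pass. Over all 127 tested nuclear partner genes, with the plastid gene expression list below included, 85 fell. With the FPKM sums set equal 70 of the nuclear partner genes fell. A test of plastome against nuclear subunits was not made.

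Nuclear proteins bind single plastid mRNAs and are needed for their stability, splicing or translation. Of 57 tested nuclear genes listed for plastid gene expression, 6 rose, 20 fell and 31 did not pass, which is to be read against the same shares of all tested genes, 11.6% higher and 18.7% lower. The largest change in this list was in MCA1, a protein needed in Chlamydomonas for stable petA mRNA, which rose to 295 ± 21.6 FPKM without added iron, against 4.65 ± 0.503 FPKM with it (SD, n = 3 each; log2 fold change 5.71, SE 0.09, limma adjusted p = 5.8197e-08). As given above, petA had 22, 8 and 11 reads without added iron and 10, 8 and 5 with it, from libraries of unequal depth. In FPKM it had 1.72, 0.604 and 0.687 without added iron, against 0.774, 0.662 and 0.616 with it. The groups overlapped, and without 0 µM replicate 1 the mean was 0.646 FPKM without added iron and 0.684 FPKM with it. The list was made by symbol, so its counts are not all of mRNA factors. HCF101, in the list, is an iron-sulfur cluster carrier for photosystem I. It fell to 9.53 ± 0.198 FPKM without added iron, against 44.7 ± 2.13 FPKM with it (-2.12).

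Other factor and target pairs, chosen after their values were seen and named for their roles in Chlamydomonas, went different ways. NAC2, needed for stable psbD mRNA, fell by 0.61 on the log2 scale (limma adjusted p = 0.0030603), and psbD did not pass. MCD1, needed for stable petD mRNA, fell by 0.45 (limma adjusted p = 0.028119), while petD, not tested, had 5, 5 and 7 reads without added iron and 1, 1 and 0 with it. MDB1, needed for stable atpB mRNA, rose by 0.49 (limma adjusted p = 0.024759), beside 0.77 for atpB, which did not pass. MTHI1, needed for stable atpH mRNA, did not pass (0.22, limma adjusted p = 0.28617), while atpH rose. MRL1 for rbcL (0.02, limma adjusted p = 0.9171) and TAB2 for psaB translation (-0.04, limma adjusted p = 0.7605) did not pass either. RPOD1, the sigma factor of the plastid RNA polymerase, averaged 94.8 ± 6.18 FPKM without added iron and 97.9 ± 3.08 FPKM with it (SD, n = 3 each; limma adjusted p = 0.65048), beside the rise of rpoA.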

How the data were processed

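The authors deposited FPKM per gene for 6 libraries, from poly(A)-selected RNA sequenced as single-end reads of 50 nt, per the labels and series design text. STAR 2.4.0j and Cuffdiff 2.0.2 are listed in the submitters' processing notes. Coordinates and names come from the annotation on the authors' assembly, per the file headers, and use of strand in counting was not given in the sources used here. The members and lists were chosen with earlier results of these data known.

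Log2(FPKM + 1) was compared in limma 3.58.1 in R 4.3.3 (trend, two-sided, Benjamini-Hochberg over 11273 genes with a mean of at least 1 FPKM, threshold 0.05). On this scale the fold changes of low genes come out too small. The procedure was tested on simulated data. The 3 flasks of a level are the replicates, and p-values describe variation among these flasks only. The main fit did not use the replicate number, so its p-values are unpaired. Deviations from group means correlated across all tested genes at 0.239, 0.262 and 0.168 between libraries of the same replicate number. On that evidence equal numbers were treated as pairs only in alternative fits, those with a replicate block. Over the plastome genes alone these correlations were 0.113, -0.156 and -0.00655, so those genes showed no such pairing.

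Reads were implied as FPKM times effective length over the value of 1 read. Fragment lengths were taken as normal (mean 200, SD 80 nt) with a shortest fragment of 46 nt. That value and the value of 1 read were chosen on nuclear genes of 150 to 600 nt, where 59.5% of 6133 values came out whole (39.7% to 57.6% with other shortest fragments, and about 6.8% if evenly spread). A value that was whole only with the full coding length, and up to 10 reads, was read that way, so these are whole by choice. These counts are no deposited counts, and no count model was used. For the fit on one length each value was recomputed with the full coding length.

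The genes named are every called plastome gene, the 2 highest of each functional group, psaA, psaB, psaC, psbA, psbB, psbC, psbD, psb30, petA, petB, petD, atpA, atpB, rbcL, tufA, clpP, rpoB, chlB, chlL, chlN, cemA, ccsA and ycf genes, and as examples of a nuclear list its 2 genes with the smallest p. Others, such as psbZ, psbT, the untested psb genes, atpE, rps2, rps3, rps7, rpl23, rpoC1, rpoC2, orf140, orf175, cox1, the genes next in likeness to psb30 on one length and the nuclear factors paired with a target, were named after their values were seen. One plastome gene is counted in the totals but is not reported here by name. Tables and figures used Python 3.11.15, pandas 2.3.3 and matplotlib 3.10.9.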

Additional observations from a re-analysis of the deposited data

How the results depend on the processing

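Beside 5 plastome genes rising, 11 rose with equal FPKM sums and with equal nuclear FPKM sums (the median of all genes was then 0.17 and 0.18, against -0.03), 3 with robust eBayes and 13 on one length with the replicate block; of all genes 11.6% rose, against 28.3%, 29.6%, 11.5% and 16.5% in these settings. Without 1 library the count ran from 2 to 8, at 2 without 1.5 µM replicate 3, 3 without 1.5 µM replicate 1 and 8 without 0 µM replicate 2. Of all genes 7.6%, 9.15% and 7.05% rose in these settings. Beside 1 falling, 0 fell with no filter, median ratio scaling and either equal sums. Of all genes 18.7% fell, against 15.6%, 16.8%, 9.63% and 9.54% in these settings. With the replicate block 2 fell, and 3 on one length with the block (of all genes 21.0% and 23.4%). With replicates 2 and 3 only, 4 fell (11.7% of all genes). On one length without 0 µM replicate 1, 8 fell (15.9% of all genes). Without 1 library the count falling ran from 0 to 7. It was 0 without 0 µM replicate 2, 0 µM replicate 3 or 1.5 µM replicate 1 (14.0%, 16.8% and 15.3% of all genes). It was 7 without 0 µM replicate 1 (14.5% of all genes). Of the nuclear partner genes 6 rose, against 13 with either equal sums and 10 on one length with the block. Without 1 library 4 to 7 rose. Of the same genes 85 fell, and 77 to 81 without 1 library. With equal FPKM sums 70 fell, with equal nuclear FPKM sums 69, and with replicates 2 and 3 only 70. Of all genes 18.7% fell, against 9.63%, 9.54% and 11.7% in these settings. The members' median of 0.40 ran from 0.02 to 0.62 without 1 library, and the plastome share from 0.488% to 1.39% without added iron and 0.385% to 0.396% with it. Some directions turned. Without 1 library the change of pafI ran from -0.29 to 0.29 (-0.026 without 1.5 µM replicate 1), petG from -0.48 to 1.54, rpoB2 from -0.13 to 0.55, psbD from -0.051 to 0.12, psaA exon 1 from -1.12 to 0.20, psaA exons 2-5 from -0.58 to 0.057 and psaB from -0.61 to 0.089; the last 3 were above 0 without 0 µM replicate 3, and the first 4 below 0 without 0 µM replicate 1, as were atpE (-0.17) and orf175 (-0.23). With replicates 2 and 3 only the values were -0.40 (pafI), -0.52 (petG), -0.12 (rpoB2) and -0.045 (psbD), and on one length without 0 µM replicate 1 -0.28 (pafI), -0.45 (petG), -0.12 (rpoB2) and -0.050 (psbD). The fits on one length and with replicates 2 and 3 only were chosen after seeing the data. The cause of these differences was not tested. The block changed no other call of a named gene on deposited FPKM than those of psbC and chlL. Calls on members of under 60 reads are limited by depth.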
